A study of Homo sapiens with 6 samples.

Results

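The amino acid and endoplasmic reticulum (ER) stress response genes described here were 34 genes chosen by symbol from the 46427 genes of the expression table. They comprise the transcription factor ATF4 and its known targets, the serine and proline synthesis enzymes, the amino acid transporters, and a set of unfolded protein response genes. All 34 symbols were found, each on 1 row of the table. Their level was measured by total RNA sequencing in H460, H1299, and A549, which are established human non-small cell lung cancer (NSCLC) cell lines. Each cell line contributed 1 control library, labelled non under treatment, and 1 library of cells transfected with siMALAT1, an siRNA against the nuclear lncRNA MALAT1. The methods describe both untreated cells and si-Control cells, so if the sequenced controls were untransfected, an effect of transfection and an effect of losing MALAT1 cannot be told apart. A single siRNA reagent is described, and RNA came from whole cultures, so a lower level in every cell and a smaller share of expressing cells cannot be told apart. The question addressed is what happens to the stress response genes when MALAT1 is knocked down in the 3 cell lines.

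Cells that run short of amino acids, or whose ER fills with misfolded protein, phosphorylate the translation factor eIF2. General translation then slows, while the mRNA of ATF4 is translated better, and ATF4 protein enters the nucleus and switches on genes for amino acid synthesis, import, and tRNA charging. ATF4 works as a dimer with partners such as C/EBP proteins, and its level of activity depends on translation as well as on its mRNA. The unfolded protein response has other, separate arms, in which ATF6 or the spliced form of XBP1 induces chaperones and degradation factors of the ER. Many tumour cells rely on this program for serine, asparagine, and glutamine supply.

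The 6 libraries held between 42506818 and 68515992 counted reads. MALAT1 was lower in the library labelled siMALAT1 in each cell line, and the log2 fold change was -2.96 in H1299, -2.84 in A549, and -2.32 in H460. The epithelial keratins KRT8 and KRT18 lay between 123 and 2918 TPM, while EPCAM lay between 0.252 and 8.04 TPM, and KRT19 was high in the H460 libraries and at most 2.23 TPM in the others. VIM was at 446 TPM or more, the blood cell marker PTPRC was listed at 0 in the 6 libraries, and the endothelial marker PECAM1 was at most 0.0221 TPM. In A549, KRT8 was at 1778 TPM in the control and 793 TPM after si-MALAT1, and KRT18 at 2918 and 1235 TPM, and the part of this in the A549 values was not tested.

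All 34 genes passed the filter on low counts, and all had at least 1 read in each library. Most of them were lower after si-MALAT1, and by most in H1299. The log2 fold change, si-MALAT1 minus control, was taken within a cell line on the RLE-scaled read count plus 1, and a gene was called higher or lower when it differed by at least 1.5-fold, which is 0.585 on the log2 scale. In H1299, 14 of the 34 genes were at least 1.5-fold lower and 2 were higher, where 11.4% and 11.7% of the 17834 genes with a read in each library were. In A549, 4 were lower and 2 higher, beside 11.4% and 11.5% of all genes. In H460, 0 were lower and 1 was higher, beside 10.3% and 9.5% of all genes. On the log2(TPM + 1) scale, 6 of the 34 were lower and 0 higher in H460, beside 4.50% and 1.32% of all genes. The median log2 fold change of the 34 genes was -0.52 in H1299, -0.15 in H460, and -0.13 in A549, and the median of all genes was 0.022, 0.018, and 0.0079. Genes with few reads can pass 1.5-fold by counting error, so the share was also taken over the 14464 genes with a mean count of at least 50. Of these, 8.97% were at least 1.5-fold lower in H1299, against 41.2% of the 34. The 34 were chosen with earlier results of these data known.

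A log2 fold change below 0 in all 3 cell lines was found for 15 of the 34 genes, which is 44.1%, beside 18.8% of all genes. The 15 were ATF4, CEBPB, CEBPG, CHAC1, STC2, ASNS, PSPH, SHMT2, ALDH18A1, SLC7A5, SLC3A2, SLC1A5, SLC7A1, XPOT, and MANF. A value above 0 in all 3 cell lines was found for NUPR1, EIF2AK3, and CRELD2, 8.82% of the 34, beside 21.4% of all genes. H1299 had the lowest of the 3 values for 22 genes, 64.7% of the 34, where 34.7% of all genes had their lowest value there. With 1 library per cell line and condition, these values have no replicate check, and the intervals given for single genes are exact 95% Clopper-Pearson intervals that cover counting error only.

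**Figure D1:**
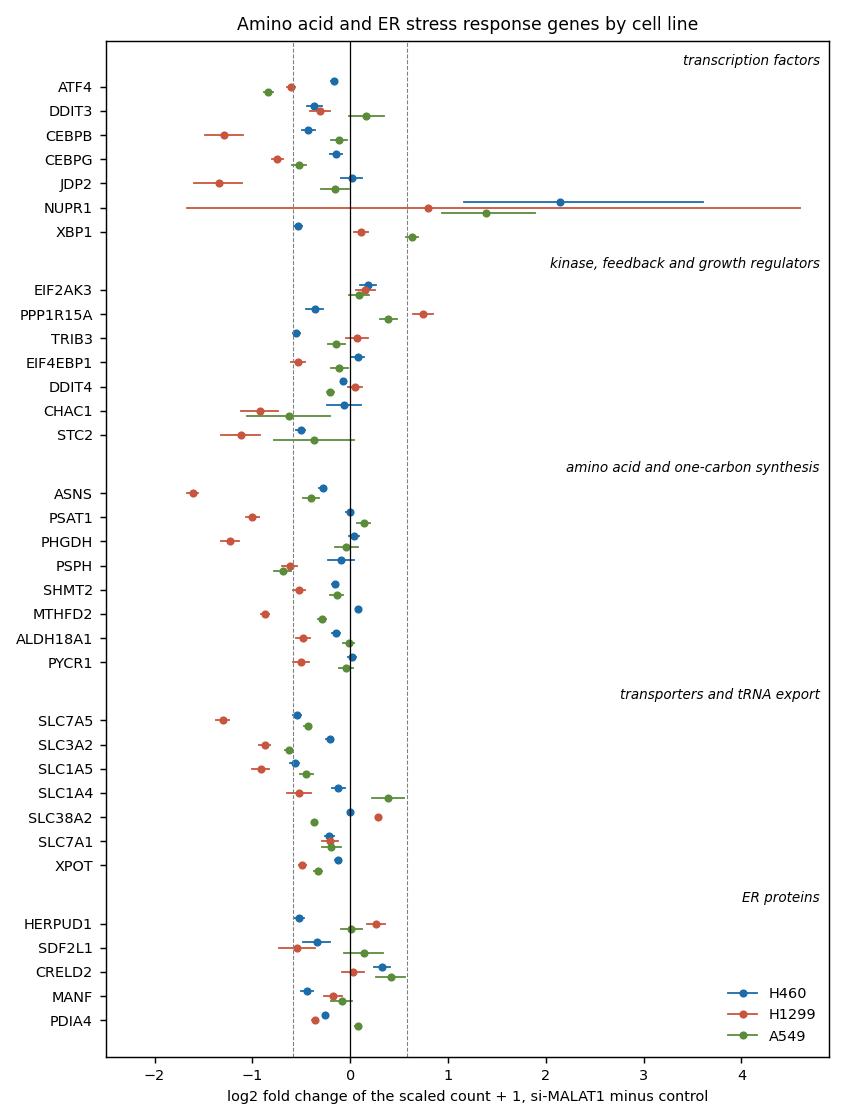
Log2 fold change (si-MALAT1 minus control, scaled count plus 1) on the x axis for each of the 34 genes on the y axis, grouped by role. Points are cell lines, horizontal lines are 95% counting intervals, and dashed lines mark 1.5-fold. The H1299 points reach furthest to the left, to -1.61 for ASNS, and NUPR1 is the one gene past the right dashed line in the 3 cell lines.

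Promoters were read for the elements through which this response is known to act. Of the 34 genes, 29 matched the RefSeq promoter table on GRCh38.p14, with 45 promoters from 250 bases before to 50 bases after a start. PSPH, SHMT2, PYCR1, NUPR1, and EIF4EBP1 were not matched. The ATF4 response element, searched as TGATGNAA on both strands, was present for 9 of the 29 genes, or 31.0%, and for 4.46% of the 27305 genes in the table. The 9 were ASNS, CHAC1, JDP2, CEBPG, SLC1A5, HERPUD1, SLC1A4, SLC3A2, and SLC7A1. For SLC3A2 and SLC7A1 the element lay after the start and for SLC1A4 it reached up to it. The ER stress element was searched as CCAAT, 9 bases, CCACG, and ER stress element II as ATTGG, 1 base, CCACG. One or the other was present for XBP1, CRELD2, HERPUD1, and SDF2L1, 4 of the 29 genes or 13.8%, beside 0.161% of the table. The UPR element TGACGTGG, whose opposite strand shares CCACG with both ER stress elements, was present for ALDH18A1, 3.45% of the 29, beside 0.927% of the table. A match is a stretch of letters and not a tested binding site. The list was chosen to hold known ATF4 targets and unfolded protein response genes. A higher share of these elements than in the table is therefore no independent evidence.

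The promoter sequences of 6 genes with the ATF4 response element follow, 5′ to 3′ on the strand of the gene, with the element in capitals. They are shown because ASNS and JDP2, the genes with the lowest H1299 values, are among them. The next lowest in H1299, SLC7A5, CEBPB, PHGDH, and STC2, were matched and did not have the element. HERPUD1, which has it, was at 0.26 in H1299. ASNS and CHAC1 are shown over 30 bases, since an exon of another annotated transcript covers the site.
ASNS (chr7:97872458-97872487, minus strand, 68 bases before the start): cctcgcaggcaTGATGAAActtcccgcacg
CHAC1 (chr15:40953251-40953280, plus strand, 209 bases before the start, element on the opposite strand): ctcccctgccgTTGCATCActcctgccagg
JDP2 (chr14:75427980-75428021, plus strand, 16 bases before the start, intron of another transcript): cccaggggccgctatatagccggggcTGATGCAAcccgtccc
CEBPG (chr19:33374045-33374104, plus strand, 42 bases before the start, intron of another transcript): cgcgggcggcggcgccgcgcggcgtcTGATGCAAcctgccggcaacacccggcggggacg
SLC1A5 (chr19:46784878-46784937, minus strand, 97 bases before the start, intron of another transcript): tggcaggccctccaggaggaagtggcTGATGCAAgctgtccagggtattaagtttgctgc
HERPUD1 (chr16:56931940-56931999, plus strand, 176 bases before the start, element on the opposite strand, upstream of the annotated transcripts): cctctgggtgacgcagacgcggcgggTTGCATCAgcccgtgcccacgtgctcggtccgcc

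The 4 genes with an ER stress element are shown the same way, since their median was not below 0 in H1299. All 4 sites lie upstream of the annotated transcripts.
XBP1 (chr22:28800577-28800647, minus strand, 52 bases before the start): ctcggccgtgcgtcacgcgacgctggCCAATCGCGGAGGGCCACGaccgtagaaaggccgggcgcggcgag
CRELD2 (chr22:49918528-49918598, plus strand, 80 bases before the start, element on the opposite strand): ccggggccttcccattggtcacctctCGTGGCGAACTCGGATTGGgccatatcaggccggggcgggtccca
HERPUD1 (chr16:56931999-56932061, plus strand, 117 bases before the start, element II): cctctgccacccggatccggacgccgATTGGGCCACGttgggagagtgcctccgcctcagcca
SDF2L1 (chr22:21642088-21642150, plus strand, 188 bases before the start, element II on the opposite strand): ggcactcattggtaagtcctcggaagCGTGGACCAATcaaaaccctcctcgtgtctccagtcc

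The 9 genes with the ATF4 response element were at a median of -0.88 on the log2 scale in H1299, and 6 of them were at least 1.5-fold lower there. The 20 matched genes without it had a median of -0.42, and 7 were lower. Among all 11960 genes with a promoter entry and a read in each library, the median was 0.027 for the 327 with the element and 0.032 for those without, and 15.6% and 9.17% of them were at least 1.5-fold lower in H1299. In H460 the medians of the 9 genes with the element and the 20 matched genes without it were -0.21 and -0.21, and in A549 they were -0.40 and -0.06. The 4 genes with an ER stress element were at a median of 0.07 in H1299, 0.28 in A549, and -0.43 in H460, so their median was below 0 in H460 and above 0 in the other cell lines, with CRELD2 higher in H460 and SDF2L1 lower in H1299 as exceptions. These are counts and medians over few genes and carry no test.

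Among the 7 transcription factors, 4 were at least 1.5-fold lower in H1299, and the medians were -0.60 in H1299, -0.12 in A549, and -0.17 in H460. ATF4 (Gene ID 468) is on GRCh38 chromosome 22, between 39514494 and 39522686. The control and si-MALAT1 libraries held 24509 and 20590 ATF4 reads in H460, 14711 and 8841 reads in H1299, and 9442 and 5843 reads in A549. For other genes too, the control comes first, and sets of 3 values follow the order of these cell lines. ATF4 had log2 fold changes of -0.17 (95% interval -0.20 to -0.14), -0.60 (-0.64 to -0.57), and -0.84 (-0.88 to -0.79), so ATF4 was lower in each si-MALAT1 library. The length-scaled TPM of ATF4 did not show this in H1299, where it was 84.7 in the control and 84.0 after si-MALAT1, while it was 209 and 165 in H460 and 112 and 85.7 in A549. CEBPB, a C/EBP factor that pairs with ATF4, had counts of 4299 and 3021 reads in H460, 811 and 303 reads in H1299, and 2398 and 2443 reads in A549. On the log2 scale its fold changes were -0.43, -1.29, and -0.12, so H1299 stood apart, and the A549 counts were close to each other. CEBPG, another dimer partner of ATF4, was lower in the 3 cell lines, by log2 fold changes of -0.15, -0.75, and -0.52.

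JDP2, a repressor of the AP-1 family, had the largest spread between cell lines among the transcription factors. Its counts were 1415 and 1353 reads in H460, 513 and 184 reads in H1299, and 795 and 788 reads in A549, and its fold changes on the log2 scale were 0.02 (-0.09 to 0.13), -1.34 (-1.60 to -1.10), and -0.16 (-0.30 to -0.01). JDP2 was therefore near its control level in H460 and well below it in H1299. DDIT3, which encodes the pro-apoptotic factor CHOP, had log2 fold changes of -0.37, -0.31, and 0.16, and its A549 interval of -0.02 to 0.35 included 0.

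NUPR1 and XBP1 went another way. NUPR1, a small stress-induced chromatin protein, had counts of 8 and 37 reads in H460, 2 and 4 reads in H1299, and 51 and 149 reads in A549. On the log2 scale its fold changes were 2.15 (1.17 to 3.60), 0.79 (-1.67 to 4.60), and 1.39 (0.93 to 1.89), and it was the one gene of the 34 at least 1.5-fold higher in the 3 cell lines, a call made by 1.19% of all genes in the higher and 1.28% in the lower direction, where 0 of the 34 were lower. The H1299 value rests on 6 reads. On the log2(TPM + 1) scale the NUPR1 values were 0.12, 0.01, and 0.44, since its level was below 1 TPM in each library. XBP1 had counts of 10707 and 6998 reads in H460, 3144 and 3090 reads in H1299, and 3538 and 6053 reads in A549. The XBP1 log2 fold change was -0.53 (-0.58 to -0.49), 0.11 (0.03 to 0.18), and 0.63 (0.57 to 0.69), so the gene was lower after si-MALAT1 in H460 and higher in A549. The table gives 1 value per gene and does not separate the spliced form of XBP1 mRNA.

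**Figure D2:**
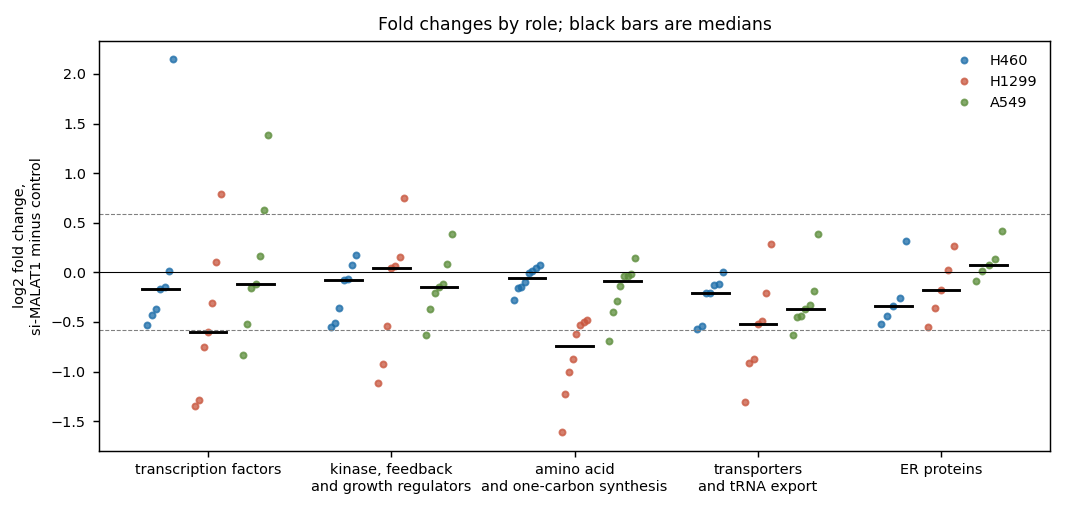
Log2 fold change (si-MALAT1 minus control) on the y axis for the 5 roles on the x axis. Each point is 1 gene in 1 cell line, black bars are medians, and dashed lines mark 1.5-fold. The 8 amino acid and one-carbon synthesis genes all lie below 0 in H1299, with a median of -0.75, and the ER proteins lie within the dashed lines in the 3 cell lines.

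The amino acid and one-carbon synthesis enzymes were lower in H1299 and near their control level in H460. In H1299 all 8 were below 0, with values from -1.61 to -0.48 and a median of -0.75, and 5 were at least 1.5-fold lower. In H460 their values ran from -0.28 to 0.08 with a median of -0.05, and in A549 from -0.69 to 0.14 with a median of -0.09. ASNS (Gene ID 440; chromosome 7, 97851677 to 97928441), which makes asparagine from aspartate and glutamine, had the largest decrease of the 34 genes in H1299. Its counts were 16034 and 12456 reads in H460, 10841 and 3244 reads in H1299, and 2482 and 2078 reads in A549. The log2 fold changes came to -0.28 (-0.32 to -0.25), -1.61 (-1.67 to -1.55), and -0.40 (-0.49 to -0.32), and the TPM gave -0.41, -1.53, and -0.39 on the log2(TPM + 1) scale. The transcribed pseudogene ASNSP1 had 221 and 50 reads in H1299 and 0 in the other libraries, 0.575% of the ASNS reads over the 6 libraries, and the handling of reads that map to both is not given in the sources used here.

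The 3 enzymes of serine synthesis were all at least 1.5-fold lower in H1299 and near their control level in H460, and they differed in A549. PHGDH (chromosome 1, 119711934 to 119744218), which commits a glycolytic intermediate to serine, had counts of 6984 and 6789 reads in H460, 3410 and 1328 reads in H1299, and 1086 and 1168 reads in A549. On the log2 scale its fold changes were 0.04 (-0.01 to 0.09), -1.23 (-1.32 to -1.14), and -0.04 (-0.16 to 0.08), so a difference was seen in H1299 alone of the 3 cell lines, and the other intervals included 0. PSAT1, the transaminase of the pathway, had counts of 11606 and 10922, 5901 and 2694, and 3334 and 4063 in the same order, with log2 fold changes of -0.01, -1.0, and 0.14. PSPH, the phosphatase that yields free serine, had counts of 997 and 880, 3456 and 2055, and 2557 and 1753, and the log2 fold changes came to -0.10 (-0.23 to 0.03), -0.62 (-0.70 to -0.54), and -0.69 (-0.78 to -0.60). PSPH was thus lower in both H1299 and A549, where PHGDH and PSAT1 were lower in H1299 and near or above their control level in A549.

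SHMT2 and MTHFD2 carry serine carbon into the mitochondrial folate pool. MTHFD2 counts were 32379 and 32317 reads in H460, 14006 and 6982 reads in H1299, and 10793 and 9756 reads in A549. The MTHFD2 log2 fold changes were 0.08 (0.06 to 0.10), -0.87 (-0.91 to -0.83), and -0.29 (-0.33 to -0.25). SHMT2 was at -0.16, -0.53, and -0.14. The proline synthesis enzymes ALDH18A1 and PYCR1 were at -0.48 and -0.50 in H1299, both short of 1.5-fold, and between -0.15 and 0.02 in H460 and A549.

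**Figure D3:**
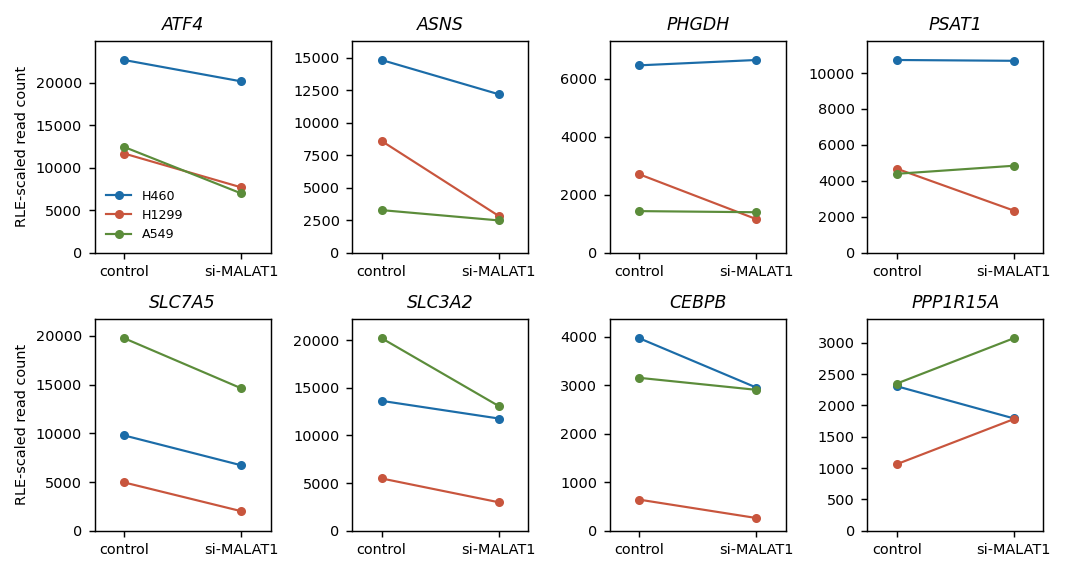
RLE-scaled read count on the y axis, from 0, in the control and si-MALAT1 libraries on the x axis for 8 genes. Each line joins the 2 libraries of a cell line. ASNS, PHGDH, PSAT1, and CEBPB are far lower after si-MALAT1 in H1299 (log2 fold changes of -1.61, -1.23, -1.0, and -1.29), SLC7A5 and SLC3A2 are lower in each cell line, and PPP1R15A is lower in H460 and higher in H1299 and A549.

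Of the 6 amino acid transporter genes and the tRNA exporter XPOT, 3 were at least 1.5-fold lower in H1299, and the medians were -0.52 in H1299, -0.37 in A549, and -0.21 in H460. SLC7A5 (Gene ID 8140; chromosome 16, 87830022 to 87869507) and SLC3A2 encode the light and heavy chain of LAT1, the exchanger that brings in leucine and other large neutral amino acids. SLC7A5 counts were 10589 and 6870 reads in H460, 6265 and 2315 reads in H1299, and 15019 and 12281 reads in A549, and the log2 fold changes came to -0.54 (-0.59 to -0.50), -1.30 (-1.37 to -1.24), and -0.44 (-0.47 to -0.40). Reads of the pseudogene SLC7A5P2 came to 14.9% of the SLC7A5 count in the H1299 control and 22.7% after si-MALAT1, to 9.54% and 10.0% in H460, and to 2.90% and 3.26% in A549, so the SLC7A5 values are uncertain, most of all in H1299. SLC3A2 counts were 14741 and 12037, 6926 and 3445, and 15348 and 10986, with log2 fold changes of -0.21, -0.88, and -0.63. Both chains were lower in each cell line and lowest against control in H1299.

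SLC1A5, the glutamine transporter ASCT2, was at -0.45 or lower in each cell line. Its counts were 10416 and 6633 reads in H460, 3662 and 1771 reads in H1299, and 4388 and 3552 reads in A549, and its fold changes on the log2 scale were -0.57 (-0.61 to -0.52), -0.92 (-1.0 to -0.83), and -0.45 (-0.51 to -0.39). SLC1A5 had the largest decrease of the 34 genes in H460. SLC1A4, a carrier of serine and alanine, had the largest spread between cell lines among the transporters. SLC1A4 counts were 4360 and 3788, 1470 and 934, and 534 and 772, with log2 fold changes of -0.12, -0.52, and 0.39, so it was lower in H1299 and higher in A549. The arginine and lysine carrier SLC7A1 had nearly the same value in each cell line, at -0.21, -0.20, and -0.19. SLC38A2, a glutamine and alanine carrier, had 75330 and 71221 reads in H460, 58542 and 64986 reads in H1299, and 30389 and 25967 reads in A549, with log2 fold changes of 0.00, 0.28, and -0.37. XPOT was at -0.13, -0.49, and -0.33.

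The kinase, feedback, and growth regulators were mixed, with medians of 0.05 in H1299, -0.14 in A549, and -0.08 in H460. PPP1R15A encodes GADD34, which recruits a phosphatase to eIF2 and so ends the response. Its counts were 2496 and 1833 reads in H460, 1341 and 2055 reads in H1299, and 1785 and 2582 reads in A549, and its fold changes on the log2 scale were -0.36 (-0.45 to -0.28), 0.75 (0.65 to 0.85), and 0.39 (0.30 to 0.48). Among the genes with a mean count of at least 50, PPP1R15A had the largest increase in H1299, while it was lower in H460. EIF2AK3, the ER-resident eIF2 kinase PERK, was at 0.18, 0.16, and 0.09, with an A549 interval of -0.02 to 0.19.

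TRIB3, a pseudokinase that restrains ATF4, had counts of 14037 and 9064 reads in H460, 1301 and 1244 reads in H1299, and 2045 and 2048 reads in A549. The TRIB3 log2 fold changes were -0.55 (-0.59 to -0.51), 0.07 (-0.05 to 0.18), and -0.14 (-0.23 to -0.05), so TRIB3 was lower in H460 and, by less, in A549. CHAC1, which degrades glutathione, had few reads, with counts of 575 and 520, 703 and 337, and 115 and 82. Its log2 fold changes were -0.06 (-0.24 to 0.11), -0.93 (-1.12 to -0.74), and -0.63 (-1.06 to -0.21). STC2, a secreted glycoprotein, was at -0.51, -1.12, and -0.37, and its A549 interval of -0.78 to 0.04 included 0. EIF4EBP1, the translation repressor 4E-BP1, was at 0.08, -0.54, and -0.11, and DDIT4, the mTORC1 inhibitor REDD1, at -0.08, 0.05, and -0.20.

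None of the 5 ER proteins was at least 1.5-fold different in any cell line, and their medians were -0.18 in H1299, 0.08 in A549, and -0.34 in H460. HERPUD1, a membrane component of ER-associated degradation, had the largest spread between cell lines among them. Its counts were 6779 and 4453 reads in H460, 1847 and 2023 reads in H1299, and 1313 and 1464 reads in A549, and the log2 fold changes came to -0.52 (-0.58 to -0.47), 0.26 (0.17 to 0.35), and 0.01 (-0.10 to 0.12). HERPUD1 was lower after si-MALAT1 in H460, higher in H1299, and at its control level within counting error in A549. CRELD2, a secreted ER stress protein, was higher in H460 at 0.32 and in A549 at 0.41, with counts of 2196 and 2592 and of 627 and 924, and was at 0.03 (-0.09 to 0.14) in H1299. MANF, a secreted ER chaperone, was at -0.44, -0.18, and -0.09. The disulfide isomerase PDIA4 was at -0.26, -0.36, and 0.08, and the chaperone cofactor SDF2L1 at -0.34, -0.55, and 0.14.

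The pairs of the 3 cell lines were then tested together, to ask which genes differed beyond the spread between cell lines. The test was edgeR's quasi-likelihood test on the counts blocked by cell line, with Benjamini-Hochberg adjustment over 19122 genes, and it has 2 residual degrees of freedom. It called 0 of the 34 genes and 0.00523% of all genes, which is MALAT1 alone. At an unadjusted p under 0.05 it had 1 of the 34 higher and 11 lower, beside 7.38% and 7.59% of all genes. The 1 was NUPR1, with a mean log2 fold change of 1.44 ± 0.68 (SD, n = 3 cell lines) and an adjusted p of 0.199. The 11 were SLC1A5, STC2, SLC7A5, SLC3A2, ATF4, CEBPG, PSPH, ASNS, XPOT, CEBPB, and CHAC1. Each of these 11 was lower in 3 of 3 cell lines, with an adjusted p between 0.114 and 0.332. The number lower at an unadjusted p under 0.05 was 14 without the H460 pair, beside 7.41% of all genes, and 6 without the H1299 pair, beside 7.13%. Without the A549 pair it was 5 of 33 genes tested, beside 2.77% of all genes.

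DESeq2, the tool named in the study's methods, called 6 of the 34 genes lower and 0 higher with the same block, beside 3.1% and 2.98% of all genes. SLC1A5 had a mean log2 fold change of -0.65 ± 0.24 (SD, n = 3) and a DESeq2 adjusted p of 0.000684. SLC7A5 was at -0.76 ± 0.47 with 0.00479, SLC3A2 at -0.57 ± 0.34 with 0.0124, STC2 at -0.66 ± 0.40 with 0.0124, ATF4 at -0.54 ± 0.34 with 0.0209, and CEBPG at -0.47 ± 0.30 with 0.0497, in the same order of quantities. The 6 genes thus hold both LAT1 chains, the glutamine transporter, ATF4, a dimer partner of ATF4, and the secreted glycoprotein STC2. The limits given above for SLC7A5, from its pseudogene, and for ATF4, from its TPM in H1299, apply here too. edgeR's adjusted p for the same 6 lay between 0.114 and 0.206, so the call depends on the tool. Over 8 alternatives, the adjusted p of each of the 6 ran from its DESeq2 value up to 1.00. NUPR1 had no adjusted p from DESeq2. ASNS, with the largest single decrease, had a mean of -0.76 ± 0.73 and a DESeq2 adjusted p of 0.0510, and PHGDH had -0.41 ± 0.71 with 0.412, and their values differed widely between cell lines. The 3 cell lines stand in for replicates here. Both tools estimate the spread of a gene with information from other genes, so these p-values do not rest on the printed SD alone.

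The cell lines also differed in how much of these mRNAs they held. By mean TPM of the 2 libraries, 25 of the 34 genes were highest in H460, 7 in A549, and 2 in H1299, and 22 were lowest in H1299. The shares of all genes ranked this way were not counted, so whether these ranks are particular to the 34 is not known. The median control TPM of the 34 was 62.8 in H460, 34.6 in A549, and 26.9 in H1299. edgeR contrasts between cell lines, with the treatment as a term, called 28 of the 34 lower and 1 higher in H1299 than in H460, beside 24.8% and 25.9% of all genes. In A549 against H460, 21 were lower and 3 higher, beside 17.9% and 17.4%, and in A549 against H1299, 14 were higher and 3 lower, beside 22.8% and 24.4%. The spread in these contrasts comes from the control and si-MALAT1 libraries of a cell line, which are not replicates of one condition.

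STC2 had the largest edgeR difference between cell lines of the 34 genes, with 30.3 and 19.4 TPM in the H460 control and si-MALAT1 libraries, 2.33 and 1.12 TPM in H1299, and 0.593 and 0.454 TPM in A549. The edgeR log2 difference of STC2 was -5.84 in A549 against H460, with an adjusted p of 5.8e-05. DDIT4 was at 384 and 331 TPM in H460, 35.2 and 38.1 TPM in H1299, and 177 and 153 TPM in A549, and TRIB3 at 98.0 and 60.3, 9.34 and 10.1, and 23.9 and 21.7 TPM. In these genes the libraries of 1 cell line did not overlap with those of another. The share of all genes without such overlap was not counted, so whether this is particular to them is not known. PSPH was instead lowest in H460, with 7.71 and 6.33 TPM there, 25.1 and 17.7 TPM in H1299, and 32.1 and 20.4 TPM in A549. It was the 1 gene called higher in H1299 than in H460, by 1.29 on the log2 scale with an edgeR adjusted p of 0.00218. The LAT1 chains were highest in A549, at 95.6 and 69.8 TPM for SLC7A5 and 220 and 140 TPM for SLC3A2. Against H460, SLC7A5 was called higher in A549, while SLC3A2 was not, at 0.34 on the log2 scale with an edgeR adjusted p of 0.201. CEBPG, at 19.4 to 33.7 TPM, and EIF4EBP1, at 58.8 to 81.6 TPM, were not called in any of the 3 contrasts.

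**Figure D4:**
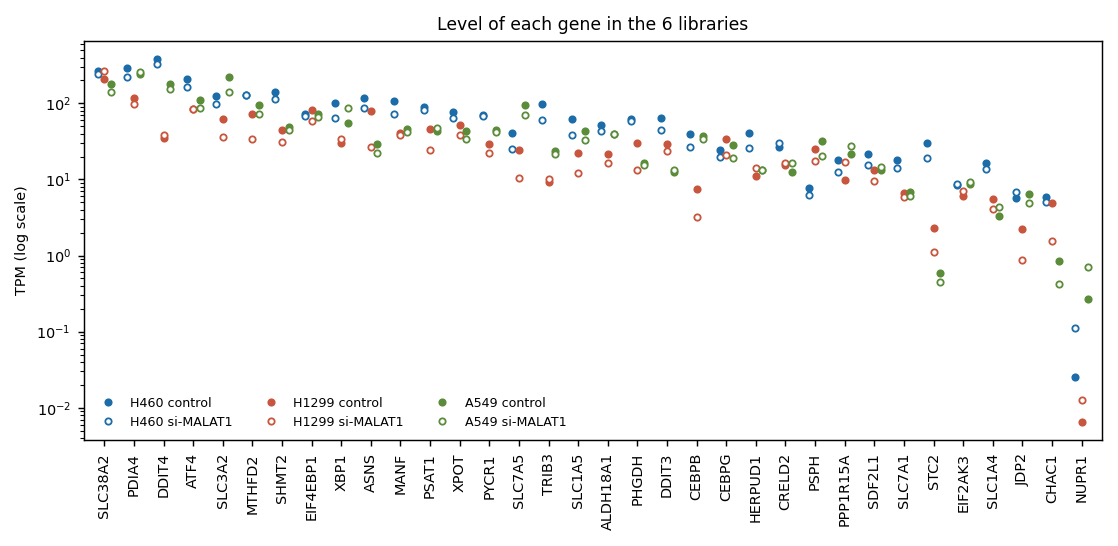
TPM on a log y axis for the 34 genes on the x axis, ordered by mean level. Filled points are control and open points are si-MALAT1 libraries, coloured by cell line. H460 points are the highest for 25 genes, the STC2 points of H460 at 30.3 and 19.4 TPM lie far above those of A549 at 0.593 and 0.454 TPM, and NUPR1 lies below 1 TPM in each library.

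Another 48 genes of the amino acid and ER stress pathways were read beside the 34. They were listed from general knowledge, but with earlier results of these data known. Of them, 47 were kept, since FGF21 had 0 reads in the 6 libraries. At least 1.5-fold lower and higher were 6 and 7 of the 47 in H1299, beside 11.4% and 11.7% of all genes, 7 and 5 in A549, beside 11.4% and 11.5%, and 5 and 0 in H460, beside 10.3% and 9.5%. The 6 lower genes in H1299 are 12.8% of the 47, a share near that of all genes, and none was called the same way in every cell line. The edgeR paired test called 0 of the 47, with 4 higher and 11 lower at an unadjusted p under 0.05, where 7.38% and 7.59% of all genes were. DESeq2 called 4 higher and 8 lower, beside 2.98% and 3.1% of all genes. SLC7A11, the cystine carrier, was at -0.15, -1.86, and -0.90 in H460, H1299, and A549, with 2533 and 636 reads in H1299. SLC6A9, a glycine carrier, was at -0.32, -1.92, and -1.04, with 111 and 26 reads in H1299, and CBS, which condenses serine with homocysteine, at -0.42, -1.30, and -1.17. EIF2AK2, the double-stranded RNA activated eIF2 kinase PKR, was at -0.38, -0.91, and -1.47.

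Other genes of that list were higher. SESN2, a leucine sensor that is also a p53 target, was at 0.39, 0.76, and 1.49, with 334 and 1040 reads in A549. SEC24D, a coat protein of ER export vesicles, was at 0.22, 1.33, and 1.08, and DNAJB9, an ER chaperone, at 0.52, 1.11, and 0.81. VLDLR, a lipoprotein receptor, was at -0.17, 1.13, and -0.09. In H460 the lowest were EDEM1, which sends misfolded glycoproteins to degradation, and HSPA5, the main ER chaperone BiP, at -0.83. EDEM1 was at -1.01, -0.08, and -1.04, so it was lower in A549 as well. HSPA5 had 65373 and 34688 reads in H460, 15654 and 19953 reads in H1299, and 8558 and 11179 reads in A549, so it was lower in H460 and higher in the other cell lines. Of the 23 ER folding and degradation genes of the list, 17 were below 0 in H460 with a median of -0.26, 8 in H1299 with a median of 0.07, and 12 in A549 with a median of -0.0026. Among all genes, the share below 0 was 49.3% in A549 and 48.1% in both H460 and H1299. The split of the list into groups was made after the values were seen.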

How the data were processed

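Total RNA from control and si-MALAT1 cultures of 3 NSCLC cell lines was sequenced, with 1 library per cell line and condition. The authors deposited read counts, FPKM, and TPM per gene, made by trimming, alignment to GRCh38 with HISAT2 2.1.0, and StringTie on an NCBI annotation. The version of StringTie differs between the paper's methods and the submitters' processing notes (1.3.4b in the latter). Whether counting used the strand is not given in the sources used here. The deposited counts are whole and not normalized, and the deposited TPM is scaled for length. FPKM was not needed. Another 18 columns of per-sample values match no sample here and were not used.

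Counts were scaled by RLE over 17834 genes with at least 1 read in each library, and 1 was added before log2. edgeR 4.0.16 (TMM, filterByExpr, Benjamini-Hochberg adjusted p under 0.05) was fitted over all genes, tested on simulated data, and DESeq2 1.42.0 was the alternative. Fits were paired by cell line, since both libraries of a pair come from the same cell line. The correlations of their deviations from the group means were 0.880, 0.906, and 0.874 over 17834 genes. The members and the lists were chosen with earlier results of these data known. Values of every library are given for genes past 1.5-fold in the 3 cell lines, for the 3 largest increases and decreases in each cell line with a mean count of at least 50, for the largest spread between cell lines in each role, and for other genes chosen after the values were seen. Of the other pathway genes, the 2 largest changes in each direction and cell line were named. Alternatives were the test, the scaling, TPM, a pseudocount of 10, the filter, a log2 fold change of 1.5, the block, and leaving out each cell line. Promoters came from the RefSeq table on GRCh38.p14. The software was Python 3.11.15 with pandas 2.3.3, pysam 0.24.0, and scipy 1.17.1, and R 4.3.3.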

Additional observations from a re-analysis of the deposited data

Results flagged for a closer look

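With 1 library per condition, a difference between 2 cell lines in the effect of si-MALAT1 could not be tested. The genes below are some of those with log2 fold changes in opposite directions in 2 cell lines. SLC1A4 and the pathway gene ERN1 are others, with a spread between cell lines of 0.909 and 1.01. Each value below is the difference between the log2 fold changes of the 2 cell lines named, and not between their levels. Of the 34 genes, XBP1 had a higher fold change in A549 than in H460, by 1.16. The fold change of PPP1R15A was higher in H1299 than in H460 by 1.11. That of PSAT1 was higher in A549 than in H1299 by 1.14, and that of MTHFD2 in H460 than in H1299 by 0.952. Of the other pathway genes, VLDLR had a higher fold change in H1299 than in H460, by 1.3, and so had SYVN1, by 1.71. The fold change of ULBP1 was higher in A549 than in H1299 by 1.09. The fold change of GADD45A was higher than in H460 by 0.792 in H1299 and by 0.987 in A549. That of HSPA5 was higher than in H460 by 1.31 in H1299 and by 1.07 in A549. These differences were not tested, and the counting intervals of the 2 cell lines did not reach 0. On the log2(TPM + 1) scale MTHFD2 was at -0.025 in H460, so its opposite directions were not seen there.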

How the results depend on the processing

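The number of genes called by the paired test depended on the setting: edgeR called 0 higher and 1 lower, DESeq2 called 569 and 592, and edgeR on genes with a read in each library called 44 and 103. With any read kept, and with no replicate block, edgeR called 0 lower genes. Leaving out a cell line gave 0 to 51 higher and 0 to 112 lower genes. DESeq2 called 6 of the 34 genes lower where edgeR called 0. At an unadjusted p under 0.05, the number of the 34 lower was 11 beside 7.59% of all genes. It was 14 without H460 (7.41%), 6 without H1299 (7.13%), 5 of 33 tested without A549 (2.77%), and 0 with no replicate block (0.607%). XBP1 changed sign with no replicate block (-0.046). Leaving out a cell line moved the paired log2 fold change across 0 for XBP1 (-0.23 without A549 to 0.36), PSAT1 (-0.52 to 0.061 without H1299), SLC1A4 (-0.33 to 0.11 without H1299), SLC38A2 (-0.19 to 0.13 without A549), and HERPUD1 (-0.27 to 0.12 without H460). For A549 against H460, 1 gene was higher with no treatment term in place of 3.

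On the log2(TPM + 1) scale, 0 of the 34 were at least 1.5-fold higher and 6 lower in H460, 1 was higher in H1299, 1 higher and 2 lower in A549, and 0 higher in the 3 cell lines. Of all genes, 1.32% were higher and 4.50% lower in H460 on this scale. The shares were 5.78% higher in H1299, and 3.76% higher and 5.02% lower in A549. This scale moves the median of all genes to -0.066 in H460. TMM scaling gave 1 lower gene in H460. A pseudocount of 10 left 1 higher in H1299 and 0 in the 3 cell lines, because NUPR1 has few reads. A log2 fold change of 1.5 left 0 higher and 1 lower in H1299, 0 and 0 in A549, and 0 higher in the 3 cell lines. Without H460, 4 genes were lower in both remaining cell lines, and without the others 0 were (range 0 to 4). For the counts under TMM scaling, a pseudocount of 10, a log2 fold change of 1.5, and without a cell line, the share of all genes was not counted. The median of the 34 stayed below 0 in the 3 cell lines under each scaling tried. The cause of these shifts was not tested, apart from the few reads of NUPR1. The precision of NUPR1 and CHAC1 is limited by their counts, and that of every within-line value by the single library per condition.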

Other observations

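The words TGAATCA and ATGAATC, each of 7 bases, were chosen from earlier results of these libraries as going with lower values, so they are no independent evidence here. In the longest annotated 3′ UTR of each gene, 1 or both were present for CEBPG (3 sites) and NUPR1 (1 site), 5.88% of the 34 genes, and for 18.4% of 12724 protein-coding genes with a read in each library. The median 3′ UTR of the 32 genes without a word was 782 bases, and that of all genes without one was 1139 bases. The median of the 32 genes was -0.52 on the log2 scale in H1299, -0.13 in A549, and -0.16 in H460.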
